A study of Homo sapiens with 12 samples.

Results

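The ATF4 and amino acid stress genes examined here are 33 genes listed by symbol for their function: ATF4 itself, partner and downstream transcription factors, stress effectors, amino acid and one-carbon enzymes, amino acid transporters and aminoacyl-tRNA synthetases. A gene was measured where at least 1 of its probes had a detection p under 0.01 on at least 4 of 12 arrays, and was represented by its brightest such probe (highest mean log2 intensity). By that rule 29 of the 33 genes were measured, of 9833 genes measured on the array in all. NUPR1, CHAC1, ALDH1L2 and SLC7A11 were detected on 0 arrays with every probe they have, and are not described further as levels. The cells were SH-SY5Y, an established line from a human neuroblastoma that keeps traits of sympathetic nerve cells. One group of 4 arrays received the SETD1A siRNA s18789, a second group of 4 received a separate SETD1A siRNA, s18790, and 4 control arrays received a control siRNA. All groups were transfected with Lipofectamine RNAiMAX and harvested 96 hours later, so that no comparison is made with an untransfected group. SETD1A encodes a histone H3 lysine 4 methyltransferase, and the siRNAs lower its RNA rather than deleting the gene. Everything comes from a single line. The labels do not state whether the 4 arrays of a group came from different cultures, and the p-values therefore reflect only how far these samples scatter, which may be technical.

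ATF4 is a basic leucine zipper transcription factor at the end of the integrated stress response. Kinases that sense missing amino acids, unfolded proteins in the endoplasmic reticulum, viral RNA or missing heme phosphorylate the translation factor eIF2, which slows protein synthesis as a whole while ATF4 messenger RNA is translated more. ATF4 then binds with C/EBP family partners to composite sites in genes that import amino acids, make serine, glycine, asparagine and one-carbon units, charge tRNAs, and feed back on the response. ATF4 activity is controlled largely at translation and protein stability, so its RNA level is only a part of its regulation.

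The sequence these genes are best known to share is the composite C/EBP-ATF site, also called the amino acid response element. The letters TGATGNAA, where N is any base, were searched on both strands (TTNCATCA on the other) in RefSeq promoter windows of 300 bases on GRCh38.p14, reaching from 250 bases before to 50 after each annotated start. Of the 33 genes, 28 had a window in the table, and 11 of these (39.3%) held the motif, against 1217 of all 27305 genes (4.46%). Counted as windows, the share was 24.4% of 45 for the stress genes and 3.62% of 35116 for all genes. Sites of 7 genes from 4 of the roles described below are shown because they let the shared core be read against different surroundings. Each is 30 bases on the gene's own strand, 5′ to 3′, and the capitals mark the motif.
ATF3, chr1:212565205-212565234, plus strand: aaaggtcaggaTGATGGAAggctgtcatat
ASNS, chr7:97872458-97872487, minus strand: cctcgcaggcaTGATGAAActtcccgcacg
SLC3A2, chr11:62881719-62881748, plus strand: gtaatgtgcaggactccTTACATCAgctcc
SLC1A5, chr19:46784893-46784922, minus strand: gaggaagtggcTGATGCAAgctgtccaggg
GARS1, chr7:30594834-30594863, plus strand: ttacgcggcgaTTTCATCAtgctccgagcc
AARS1, chr16:70289675-70289704, minus strand: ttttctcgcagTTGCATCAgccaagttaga
NARS1, chr18:57621804-57621833, minus strand: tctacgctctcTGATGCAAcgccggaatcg
The motif of ASNS began at position -68 from the annotated start, that of SLC1A5 at -97, that of GARS1 at -33 and that of AARS1 at -187. In SLC3A2 and NARS1 it lay within the transcribed bases, at 38 and 15. CEBPG, CHAC1, SLC7A1 and MARS1 also held a match. VLDLR, SLC7A5, STC2, PSAT1 and ATF4, whose levels are prominent below, had no match to these letters in this window. A match describes letters and is not evidence of binding in these cells.

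SETD1A itself was lower on every array of both siRNAs than on any control array. Its probe read 7.34, 7.22, 7.10 and 7.30 with s18789, 6.98, 7.45, 6.90 and 6.83 with s18790, and 7.52, 7.64, 7.50 and 8.03 with the control siRNA, as log2 intensity. The level was 74.1% of control with s18789 (limma adjusted p = 0.616) and 64.6% of control with s18790 (adjusted p = 0.0276), and the exact two-sided permutation test over arrays gave p = 0.0286 for each, the smallest that 4 against 4 arrays can give. The knockdown was thus partial with both siRNAs, and its size depended on the processing. For s18790 minus control the log2 difference was -0.63, against -0.46 with the deposited log2 values and -0.75 under median scaling. For s18789 minus control it was -0.43, against -0.33 and -0.37 in the same settings. The call for s18790 was lost without control replicate 1 (adjusted p = 0.0507), control replicate 2 (0.0683), s18790 replicate 1 (0.0730) or s18790 replicate 4 (0.0660). Between the siRNAs the difference was -0.20 (s18790 minus s18789, exact permutation p = 0.229). Array medians of raw intensity lay between 63.1 and 70.2, between 29.1% and 33.6% of probes were detected, and 0 pairs of arrays held identical values. s18790 replicate 2 and control replicate 4 stood apart from their groups, with the lowest detected shares (29.1% and 29.3%), and results that rest on them are given with and without both. Without both, more probes passed across the whole array. For s18790 minus control, 17.6% of probes had a limma adjusted p under 0.05, against 8.32% with all arrays. The cells' identity was checked on 11 sympathoadrenal markers on the array, of which 10 were detected and TH was on 0 arrays. Of 15 markers of immune, epithelial, glial, endothelial and fibroblast cells, 10 were detected on 0 arrays. The immune marker CD68 was detected on all 12 arrays and the epithelial marker EPCAM on 9. All 3 fibroblast markers, LUM, DCN and PDGFRB, were detected on all 12, so that set does not tell these cells from fibroblasts.

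Few of the ATF4 and amino acid stress genes moved past the test, and they did not move as a block. With s18790, VLDLR, a lipoprotein and reelin receptor, rose to 1.52-fold of control, and SLC7A5, the light chain of the large neutral amino acid transporter, rose to 1.42-fold. With s18789, 0 of the 29 genes passed. Between the siRNAs, STC2, a secreted stress-induced glycoprotein, was lower with s18790, at 0.636 of its s18789 level. ATF4 RNA was lower on every s18790 array than on any control array, at 79.3% of control, and whether it passed depended on the processing (limma adjusted p = 0.0692, and 0.0380 with the deposited log2 values). These RNA levels come from whole cultures, in which fewer cells of a kind and less RNA per cell cannot be told apart.

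Across the array, limma called 0.0942% of 15922 probes for s18789 minus control, 8.32% for s18790 minus control and 4.20% for s18790 minus s18789, at a Benjamini-Hochberg adjusted p under 0.05. Among the 29 genes the shares were 0%, 6.90% (2 genes, both higher, where 4.03% of probes were called higher) and 3.45% (1 gene, lower, where 1.85% of probes were called lower), each close to its background. Over all 9833 genes, counted with 1 probe each as the 29 are, the called shares were 0.102%, 9.85% and 5.07%. For s18789 minus control, 2 genes had an unadjusted p under 0.05 (6.90%, against 6.02% of probes and 6.35% of all genes). The same count was 9 genes (31.0%, against 24.9% of probes and 28.2% of all genes) for s18790 minus control. It was 8 genes (27.6%, against 21.6% of probes and 24.6% of all genes) for s18790 minus s18789. The moderated F test over the 3 groups called VLDLR alone (adjusted p = 0.0128, with 6.27% of probes called).

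Ranges of 4 arrays were apart for 2 genes between s18789 and control (6.90%, against 7.08% of probes), MTHFD2 higher (2.86% of probes were apart upwards) and PPP1R15A lower (4.23% downwards). They were apart for 5 genes between s18790 and control (17.2%, against 13.3% of probes), VLDLR and SLC7A5 higher (6.95% of probes) and ATF4, PSAT1 and GARS1 lower (6.30%). Between s18790 and s18789 they were apart for 8 genes (27.6%, against 14.0% of probes), ATF5 and VLDLR higher (7.88% of probes) and ATF4, STC2, ASNS, PSAT1, GARS1 and NARS1 lower (6.10%). Over all 9833 genes the ranges were apart for 7.72%, 15.3% and 16.2%, in the same order of comparisons. The median difference of the 29 genes was 0.095 for s18789 minus control, with 21 genes above 0, -0.010 for s18790 minus control, with 13 above 0, and -0.10 for s18790 minus s18789, with 10 above 0. For all 9833 genes the medians were 0.011, 0.018 and 0.021, with 52.8%, 52.2% and 52.7% of genes above 0. Both siRNAs are set against the same 4 control arrays, so their directions are given side by side only: 11 genes lay above control with both, 6 below control with both, 10 above with s18789 and below with s18790, and 2 the reverse.

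**Figure D1:**
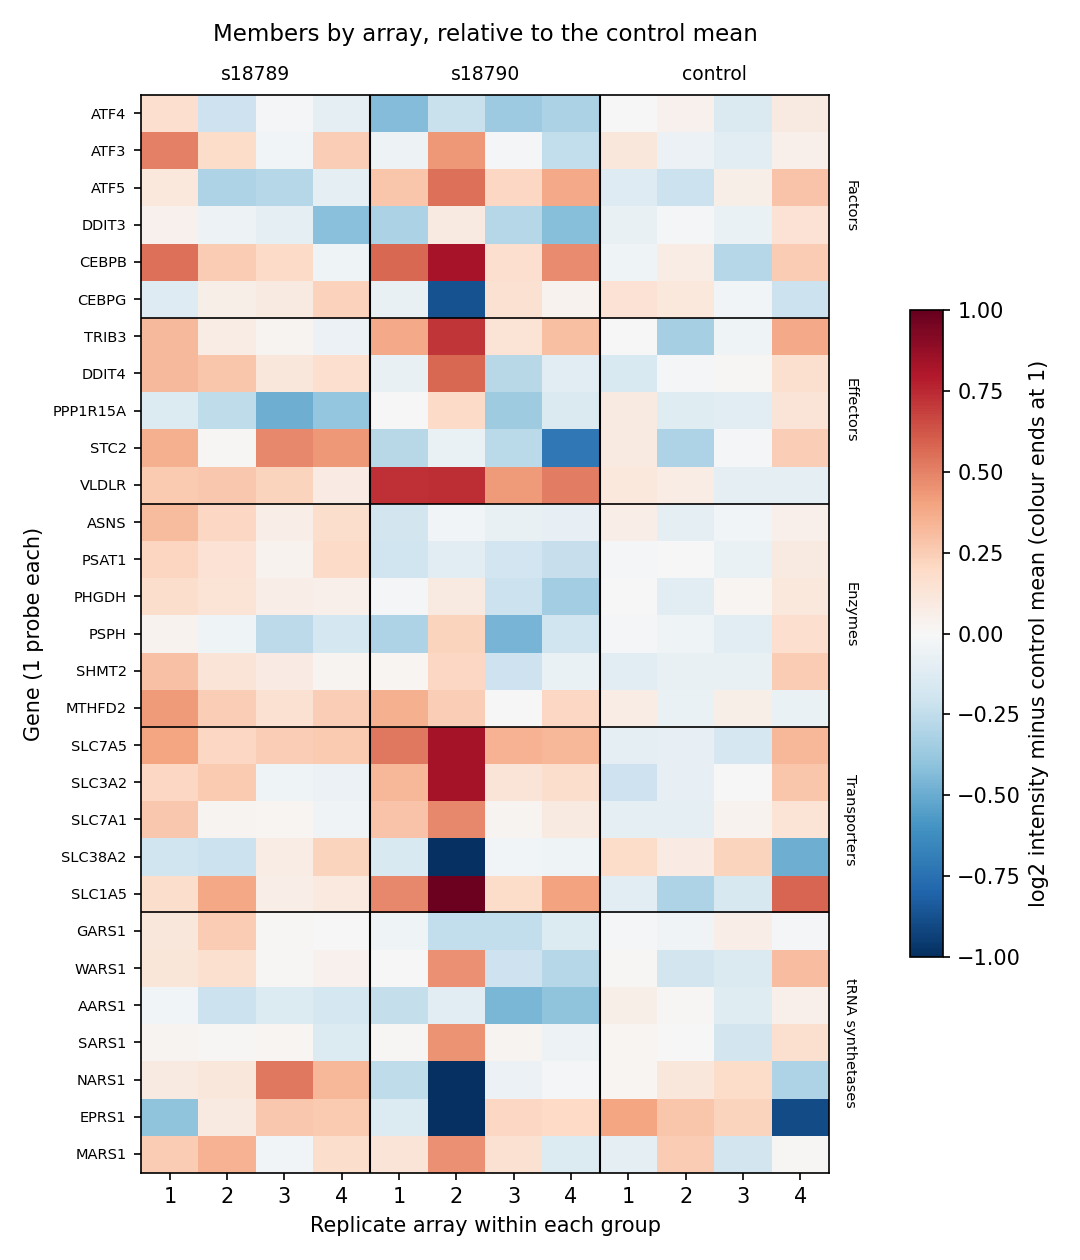
Log2 intensity of the 29 measured genes (rows, grouped by role) on each of the 12 arrays (columns, by group), minus the control mean of that gene, on a colour scale from -1 to 1 log2 units. VLDLR and SLC7A5 are above the control mean on all 4 s18790 arrays, ATF4 and PSAT1 are below it there, and s18790 replicate 2 holds the strongest colours.

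Transcription factors made up 6 of the measured genes, and 0 of them passed the test in any comparison. Of all genes measured, 0.102% passed for s18789 minus control, 9.85% for s18790 minus control and 5.07% for s18790 minus s18789. These shares are the background for the role counts here and below, and in lists this small such counts do not set a role apart. ATF4, the factor the group is named for, had log2 intensities of 11.82, 11.44, 11.64 and 11.56 with s18789, 11.22, 11.43, 11.29 and 11.34 with s18790, and 11.66, 11.70, 11.51 and 11.74 with the control siRNA. All 4 s18790 values lay below all 8 others, while the s18789 and control ranges overlapped. The difference from control was -0.33 ± 0.10 with s18790 (SE, 95% interval -0.56 to -0.11, limma adjusted p = 0.0692) and -0.037 ± 0.10 with s18789. Against s18789, the s18790 level differed by -0.30 (interval -0.52 to -0.070, adjusted p = 0.125). Both other ATF4 probes that were measured also lay below control with s18790, by -0.28 (adjusted p = 0.202) and -0.33 (adjusted p = 0.206). The s18790 difference from control passed with no background correction (-0.33, adjusted p = 0.0391), with the deposited log2 values (-0.33, adjusted p = 0.0380), with an offset of 50 (-0.33, adjusted p = 0.0481) and with array weights (-0.36, adjusted p = 0.0221). Over 25 alternatives it passed in 5, with adjusted p between 0.0221 and 0.303. Without s18790 replicate 2, the highest of its group, it was -0.37 and also passed (adjusted p = 0.0408). Without both outlying arrays it was -0.34 (adjusted p = 0.0507).

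Of the other 5 factors, DDIT3 and CEBPG also had a lower mean with s18790 than in control, and ATF3, ATF5 and CEBPB a higher one. ATF5, a related factor of the mitochondrial stress response, read 7.53, 7.80, 7.45 and 7.63 with s18790 and 7.36, 6.94, 6.96 and 7.16 with s18789, against 7.12, 7.04, 7.31 and 7.54 in control. Every s18790 value was above every s18789 value, and the s18790 and control ranges overlapped at control replicate 4. The difference was 0.50 ± 0.14 between the siRNAs (s18790 minus s18789, SE, interval 0.20 to 0.80, limma adjusted p = 0.0602) and 0.35 for s18790 minus control (adjusted p = 0.134). Between the siRNAs it passed in 4 of 23 alternatives (limma adjusted p 0.0245 to 0.218). Among these were the fits without control replicate 4 (adjusted p = 0.0456) and without both outlying arrays (0.43, adjusted p = 0.0364). CEBPB, a C/EBP partner of ATF4, was 8.39, 8.09, 8.03 and 7.79 with s18789, 8.41, 8.66, 8.00 and 8.31 with s18790, and 7.79, 7.91, 7.55 and 8.09 in control. Its highest s18790 and highest control values were those of the outlying arrays, and the ranges overlapped by the distance between 8.00 and 8.09. The s18790 difference of 0.51 ± 0.17 missed the threshold (adjusted p = 0.0810), and passed in 3 of 23 alternatives (limma adjusted p 0.0334 to 0.221). Among these were the fits without s18790 replicate 3 (0.63, adjusted p = 0.0347) and without both outlying arrays (0.49, adjusted p = 0.0488).

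CEBPG, the C/EBP partner that pairs with ATF4 at amino acid response elements, read 8.94, 8.14, 9.16 and 9.05 with s18790, against 9.16, 9.12, 8.98 and 8.80 in control, a difference of -0.19 (adjusted p = 0.578) in which s18790 replicate 2 was the lowest array. ATF3, an early stress factor induced by ATF4, differed by 0.23 with s18789 and 0.030 with s18790, and its highest s18790 value, 7.27, was again on replicate 2. DDIT3, which encodes the pro-apoptotic factor CHOP, was near the detection limit: it was detected on 3 s18789 arrays, 1 s18790 array and all 4 control arrays. Its log2 values ran from 5.38 to 5.84 with s18789, from 5.37 to 5.89 with s18790 and from 5.73 to 5.95 in control, and the ranges overlapped. Its difference from control was -0.13 with s18789 and -0.23 with s18790 (adjusted p = 0.306), and the second was -0.29 without both outlying arrays (adjusted p = 0.107). The median difference of the 6 factors was 0.012 for s18789 minus control, which turned to -0.0090 without both outlying arrays, and -0.080 for s18790 minus control.

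Among the 5 measured effectors, VLDLR rose with s18790 and STC2 was lower with s18790 than with s18789. VLDLR, induced through ATF4 in other cells under endoplasmic reticulum stress, read 6.80, 6.81, 6.76 and 6.62 with s18789, 7.27, 7.28, 6.96 and 7.05 with s18790, and 6.64, 6.61, 6.45 and 6.45 in control. The 4 s18790 values were the highest of the 12, and the s18789 range overlapped that of control only at s18789 replicate 4. Against control the difference was 0.60 ± 0.11 with s18790 (SE, interval 0.37 to 0.83, limma adjusted p = 0.00513) and 0.21 ± 0.11 with s18789 (interval -0.020 to 0.44, adjusted p = 0.896). Between the siRNAs the difference was 0.39 (interval 0.16 to 0.62, adjusted p = 0.0546), just outside the threshold. That difference passed in 5 of 23 alternatives (limma adjusted p 0.0340 to 0.383). Among these were the fits without s18790 replicate 3 (0.45, adjusted p = 0.0340) and without both outlying arrays (0.35, adjusted p = 0.0487). The call for s18790 minus control held with each array left out in turn. Under median scaling of the arrays in place of quantile normalization the difference was 0.47 (adjusted p = 0.0691).

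STC2 lay on opposite sides of its control mean with the siRNAs. Its log2 intensities were 6.33, 6.54, 6.35 and 5.90 with s18790 and 6.97, 6.63, 7.09 and 7.04 with s18789, against 6.70, 6.30, 6.59 and 6.86 in control. No s18790 value reached the s18789 range, and the control values overlapped both. The difference between the siRNAs was -0.65 ± 0.16 (s18790 minus s18789, SE, interval -1.0 to -0.30, limma adjusted p = 0.0445). From control it was 0.32 with s18789 (adjusted p = 0.896) and -0.33 with s18790 (adjusted p = 0.228). This call rested on several arrays: the adjusted p was 0.0654 without control replicate 1, 0.0659 without control replicate 3, 0.0912, 0.137 and 0.125 without s18789 replicates 1, 3 and 4, and 0.0919 and 0.0866 without s18790 replicates 1 and 4. Without both outlying arrays it was -0.74 (adjusted p = 0.00943).

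**Figure D2:**
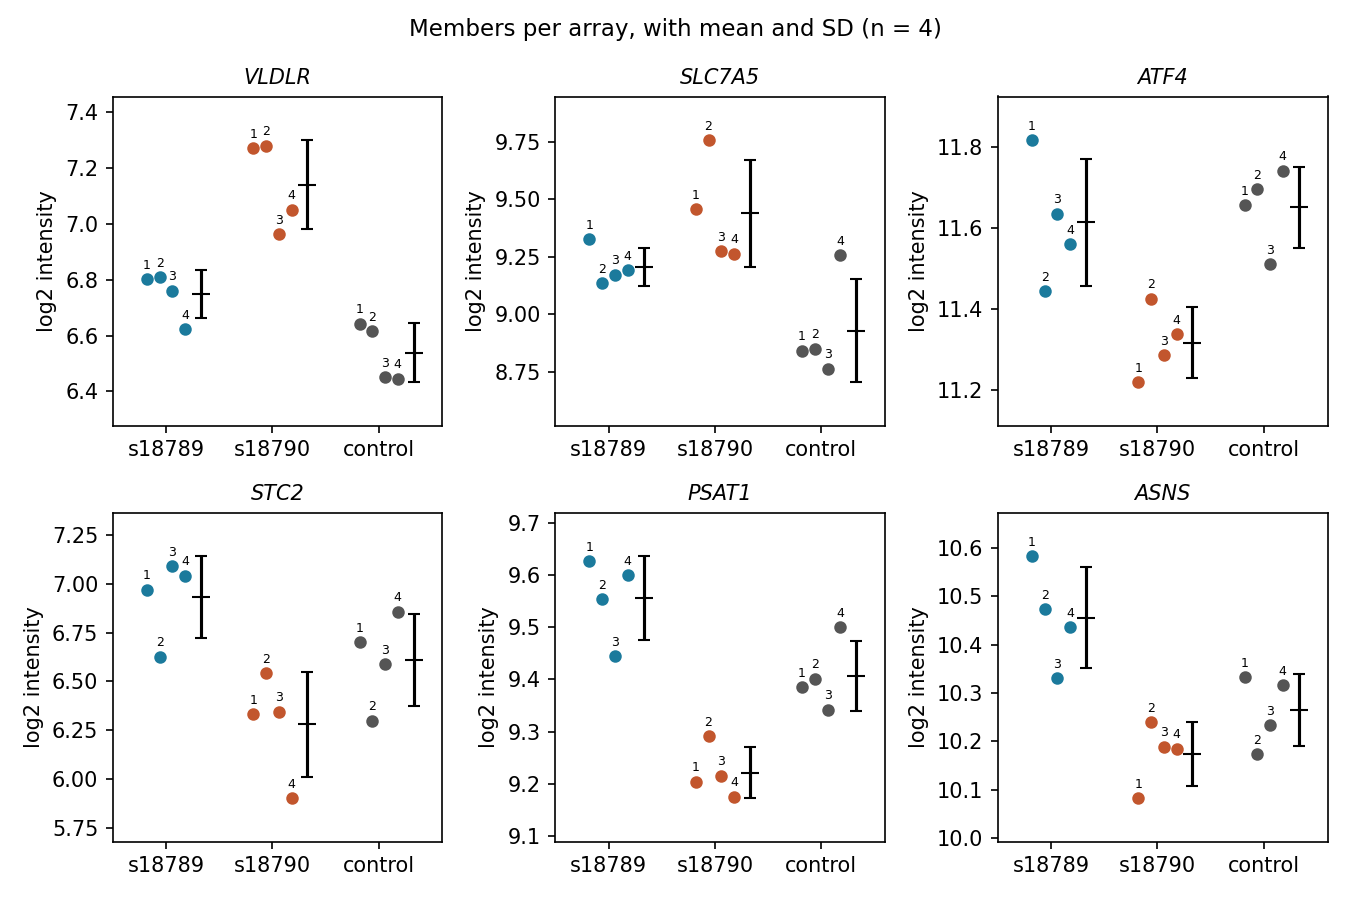
Log2 intensity of 6 genes on each array, with the replicate number above each point and the mean and SD of each group (n = 4) beside the points; each panel has its own axis, which does not start at 0. The s18790 points lie above all others for VLDLR and below all others for ATF4 and PSAT1, and for STC2 the s18790 points lie below the s18789 points while the control points overlap both.

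PPP1R15A, which encodes the GADD34 subunit that removes the phosphate from eIF2, was 8.24, 8.12, 7.89 and 7.99 with s18789, against 8.47, 8.26, 8.28 and 8.51 in control. All 4 s18789 values were below control, and the difference of -0.32 ± 0.13 was far from the threshold after adjustment (unadjusted p = 0.0315, limma adjusted p = 0.737). With s18790 the difference was -0.075. TRIB3, a pseudokinase that restrains ATF4 and AKT, had values of 8.52, 8.85, 8.28 and 8.44 with s18790, against 8.13, 7.81, 8.10 and 8.52 in control, where the highest control value was that of replicate 4. Its difference was 0.38 ± 0.16 (adjusted p = 0.166), and 0.40 (adjusted p = 0.0476) without both outlying arrays. It passed in 2 of 23 alternatives (limma adjusted p 0.0397 to 0.415). DDIT4, or REDD1, an inhibitor of mTORC1 signalling, differed by 0.22 with s18789 and 0.029 with s18790, and between the siRNAs by -0.19, with s18790 replicate 2 at 9.32 and the other s18790 arrays between 8.46 and 8.67. Without both outlying arrays DDIT4 was lower with s18790 than with s18789 by -0.37 (adjusted p = 0.0290). That difference passed in 2 of 23 alternatives (limma adjusted p 0.0290 to 0.734). As a role, the effectors had a median difference of 0.21 for s18789 minus control and 0.029 for s18790 minus control, and the second turned to -0.042 under median scaling, where all probes had a median of -0.076, and to -0.10 without both outlying arrays.

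The 6 measured enzymes of serine, asparagine and one-carbon metabolism all lay lower with s18790 than with s18789, by 0.065 to 0.33 on the log2 scale. Of all genes measured, 52.7% lay higher in that comparison. Of the 6 enzyme differences, 0 passed the test, where 5.07% of all genes did. PSAT1, the aminotransferase of serine synthesis, came closest. It read 9.20, 9.29, 9.22 and 9.18 with s18790 and 9.63, 9.55, 9.44 and 9.60 with s18789, against 9.38, 9.40, 9.34 and 9.50 in control. The 4 s18790 values were the lowest of the 12, and the s18789 values lay at or above the middle of the control range. The difference between the siRNAs was -0.33 ± 0.087 (SE, interval -0.52 to -0.15), with an adjusted p of 0.0501 in the limma fit. It passed in 9 of 23 alternatives (adjusted p 0.0154 to 0.139). Among these were the fits with the deposited log2 values (-0.31, adjusted p = 0.0261), without s18790 replicate 2 (-0.36, adjusted p = 0.0329) and without both outlying arrays (adjusted p = 0.0201). From control it was 0.15 with s18789 (adjusted p = 0.968) and -0.19 with s18790 (adjusted p = 0.208).

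ASNS, which makes asparagine from aspartate and glutamine, was 10.08, 10.24, 10.19 and 10.18 with s18790 and 10.58, 10.47, 10.33 and 10.44 with s18789, against 10.33, 10.17, 10.23 and 10.32 in control. The siRNA ranges were apart and the control values lay between or within them. The difference was -0.28 ± 0.092 between the siRNAs (interval -0.48 to -0.083, limma adjusted p = 0.102), 0.19 for s18789 minus control and -0.090 for s18790 minus control. A second ASNS probe gave 0.24 and 0.082 for the same comparisons with control, so the probes disagree in sign for s18790. PHGDH, the first enzyme of serine synthesis, differed from control by 0.11 with s18789 and -0.12 with s18790, and by -0.23 between the siRNAs (adjusted p = 0.245). PSPH, the last enzyme of that route, lay below control by 0.11 and 0.19 with s18789 and s18790, and SHMT2, the mitochondrial serine hydroxymethyltransferase, differed by 0.13 and -0.0096.

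MTHFD2, the mitochondrial enzyme that oxidises methylene-tetrahydrofolate, was the enzyme above control with both siRNAs. Its values were 9.31, 9.13, 9.04 and 9.13 with s18789, 9.23, 9.13, 8.89 and 9.09 with s18790, and 8.95, 8.82, 8.93 and 8.81 in control. All s18789 values exceeded all control values, and s18790 replicate 3 alone fell into the control range. The differences were 0.27 ± 0.10 with s18789 (unadjusted p = 0.0222, limma adjusted p = 0.677) and 0.20 with s18790 (adjusted p = 0.243). PHGDH, PSAT1 and PSPH of the serine synthesis route had lower means with s18790 than in control, and none passed (limma adjusted p = 0.524, 0.208 and 0.442). The PHGDH and PSPH ranges overlapped those of control. With s18789, PSPH alone of these had a mean below control. The role median was 0.14 for s18789 minus control, -0.11 for s18790 minus control and -0.19 for s18790 minus s18789.

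**Figure D3:**
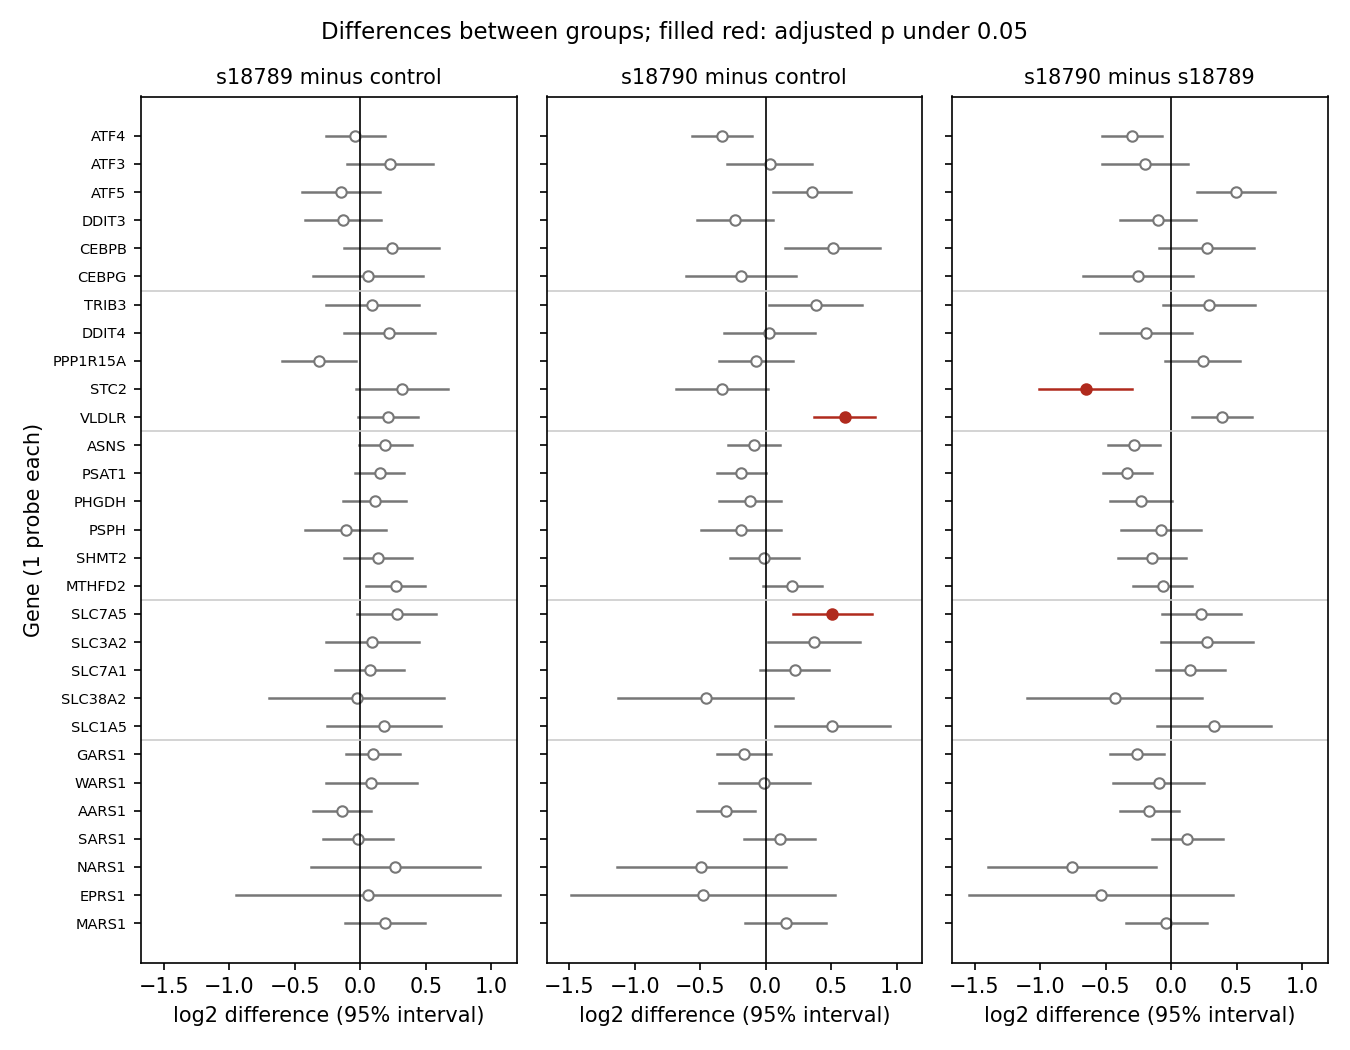
Log2 difference with its 95% interval for each of the 29 genes, in the 3 comparisons (panels), from the limma fit over all probes; filled red points have an adjusted p under 0.05. VLDLR and SLC7A5 are red for s18790 minus control and STC2 for s18790 minus s18789, and the first panel has none.

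Of the 5 measured amino acid transporters, 4 had a higher mean with s18790 than in control, and 1 of them passed the test. Of all genes measured, 52.2% lay higher in that comparison and 9.85% passed. SLC7A5, which imports leucine and other large neutral amino acids, read 9.33, 9.13, 9.17 and 9.19 with s18789, 9.46, 9.76, 9.28 and 9.26 with s18790, and 8.84, 8.85, 8.76 and 9.26 in control. The s18790 values were above every control value, by a narrow margin at control replicate 4, and the s18789 values exceeded the other 3 controls. The difference was 0.51 ± 0.14 with s18790 (SE, interval 0.21 to 0.81, limma adjusted p = 0.0400) and 0.28 ± 0.14 with s18789 (interval -0.021 to 0.58, adjusted p = 0.892), and 0.23 between the siRNAs (adjusted p = 0.342). The call for s18790 was fragile to single arrays: the adjusted p was 0.117, 0.113 and 0.123 without control replicates 1, 2 and 3, 0.0532, 0.0594, 0.0590 and 0.0602 without s18789 replicates 1 to 4, and 0.0932 and 0.0517 without s18790 replicates 1 and 2. Without both outlying arrays it was 0.51 with an adjusted p of 0.00425. Under median scaling it was 0.44 (adjusted p = 0.203).

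SLC3A2, the heavy chain that carries SLC7A5 to the membrane, read 7.84, 8.33, 7.63 and 7.68 with s18790 and 7.71, 7.76, 7.46 and 7.44 with s18789, against 7.30, 7.42, 7.51 and 7.78 in control. SLC1A5, a glutamine and neutral amino acid exchanger, read 8.09, 8.59, 7.80 and 8.02 with s18790 and 7.79, 8.00, 7.68 and 7.71 with s18789, against 7.51, 7.30, 7.45 and 8.20 in control. In both genes control replicate 4 was the highest control and s18790 replicate 2 the highest of all, and the ranges overlapped through control replicate 4 alone. The s18790 difference was 0.37 ± 0.16 for SLC3A2 (limma adjusted p = 0.179) and 0.51 ± 0.20 for SLC1A5 (adjusted p = 0.139). SLC1A5 passed in 3 of 23 alternatives (limma adjusted p 0.00800 to 0.328). Among these were the fits without control replicate 4 (0.71, adjusted p = 0.0240) and without both outlying arrays (0.55, adjusted p = 0.00800). SLC7A1, which imports arginine and lysine, differed by 0.22 with s18790 (adjusted p = 0.282) and 0.072 with s18789.

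SLC38A2, the neutral amino acid transporter SNAT2, behaved unlike the other transporters. Its values were 9.65, 8.19, 9.78 and 9.76 with s18790 and 9.61, 9.59, 9.88 and 10.02 with s18789, against 9.99, 9.89, 10.02 and 9.32 in control. The outlying array of each group was the lowest, and the difference of -0.46 ± 0.31 for s18790 did not pass (limma adjusted p = 0.384). Without both outlying arrays it was -0.24 (adjusted p = 0.207). For the 5 transporters together, the median difference from control was 0.093 with s18789 and 0.37 with s18790, with 4 of 5 above 0 in each (52.8% and 52.2% of all genes). All 4 s18790 arrays had a transporter median above the control mean, at 0.34, 0.83, 0.13 and 0.18, against 0.21, 0.21, 0.069 and 0.094 for s18789 and -0.087, -0.083, 0.0069 and 0.28 for control. Control replicate 4 thus lay within the s18790 range.

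**Figure D4:**
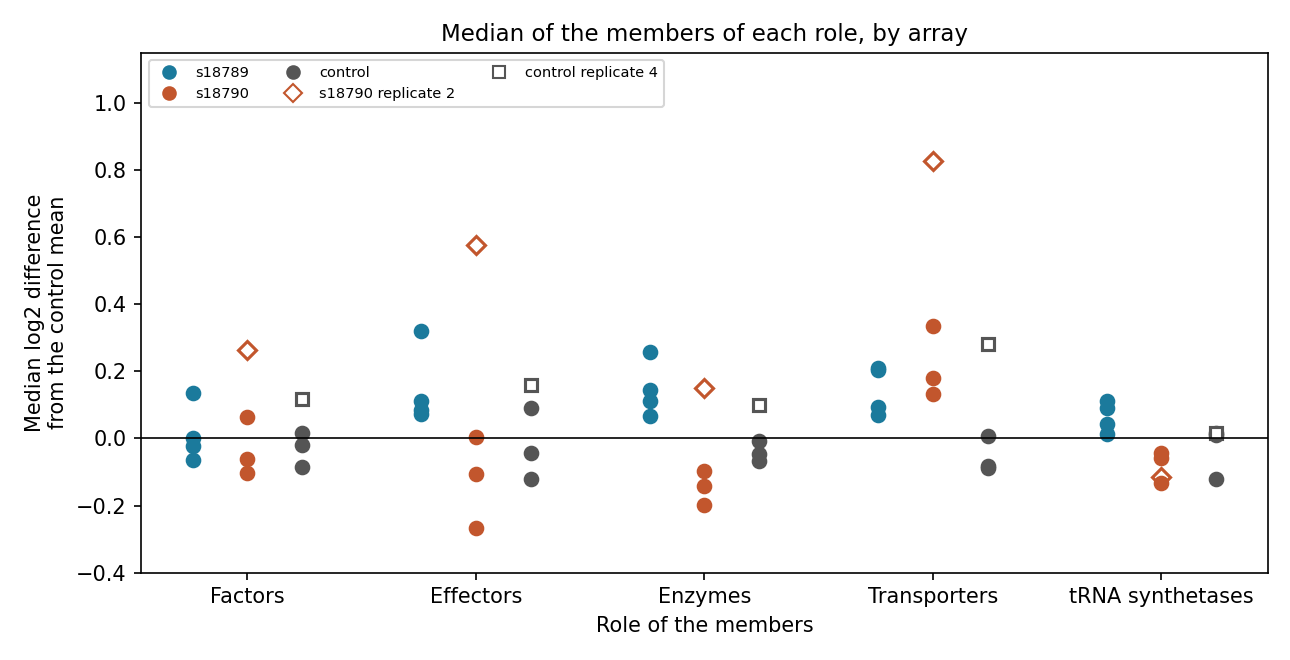
Median log2 difference from the control mean over the measured genes of each role (x axis), 1 point per array; open symbols are s18790 replicate 2 and control replicate 4. The enzyme medians of s18790 replicates 1, 3 and 4 lie below those of the 4 s18789 arrays, while s18790 replicate 2 is the highest point in the factors, effectors and transporters.

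The 7 measured aminoacyl-tRNA synthetases, which attach amino acids to their tRNAs, had a median difference of 0.084 for s18789 minus control, -0.17 for s18790 minus control and -0.17 for s18790 minus s18789. In these comparisons 0 of them passed the test, where 0.102%, 9.85% and 5.07% of all genes did. GARS1, the glycine enzyme, read 10.75, 10.55, 10.55 and 10.66 with s18790 and 10.91, 11.05, 10.81 and 10.79 with s18789, against 10.78, 10.76, 10.86 and 10.77 in control. The s18790 values lay below all 8 others, and the difference was -0.17 from control (adjusted p = 0.303) and -0.26 from s18789 (adjusted p = 0.136). AARS1, the alanine enzyme, read 10.39, 10.52, 10.17 and 10.23 with s18790, against 10.69, 10.64, 10.51 and 10.68 in control. Only s18790 replicate 2 touched the control range. Its difference of -0.30 ± 0.10 missed the threshold (interval -0.53 to -0.081, limma adjusted p = 0.0891), and passed in 3 of 23 alternatives (adjusted p 0.0162 to 0.309). Among these were the fits without s18790 replicate 2 (-0.37, adjusted p = 0.0276) and without both outlying arrays (-0.35, adjusted p = 0.0322). MARS1, SARS1 and WARS1, the methionine, serine and tryptophan enzymes, differed from control by 0.15, 0.11 and -0.010 with s18790 and by 0.19, -0.019 and 0.084 with s18789.

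NARS1 and EPRS1 had the widest spread of the synthetases. NARS1, the asparagine enzyme, read 10.40, 9.02, 10.60 and 10.65 with s18790 and 10.75, 10.77, 11.19 and 10.99 with s18789, against 10.68, 10.77, 10.84 and 10.35 in control. EPRS1, the joint glutamate and proline enzyme, read 9.96, 7.92, 10.30 and 10.29 with s18790 and 9.70, 10.18, 10.37 and 10.36 with s18789, against 10.49, 10.38, 10.32 and 9.20 in control. In both genes s18790 replicate 2 was far below the rest of its group, and control replicate 4 was the lowest control. The s18790 differences from control were -0.49 ± 0.30 for NARS1 (limma adjusted p = 0.332) and -0.48 ± 0.47 for EPRS1 (adjusted p = 0.559), with standard errors several times those of GARS1 or AARS1. NARS1 ranges were apart between the siRNAs (-0.76, interval -1.40 to -0.11, adjusted p = 0.164). Without both outlying arrays the s18790 differences from control were -0.21 for each gene (adjusted p = 0.277 for NARS1 and 0.416 for EPRS1), and NARS1 differed by -0.37 between the siRNAs (adjusted p = 0.0640).

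**Figure D5:**
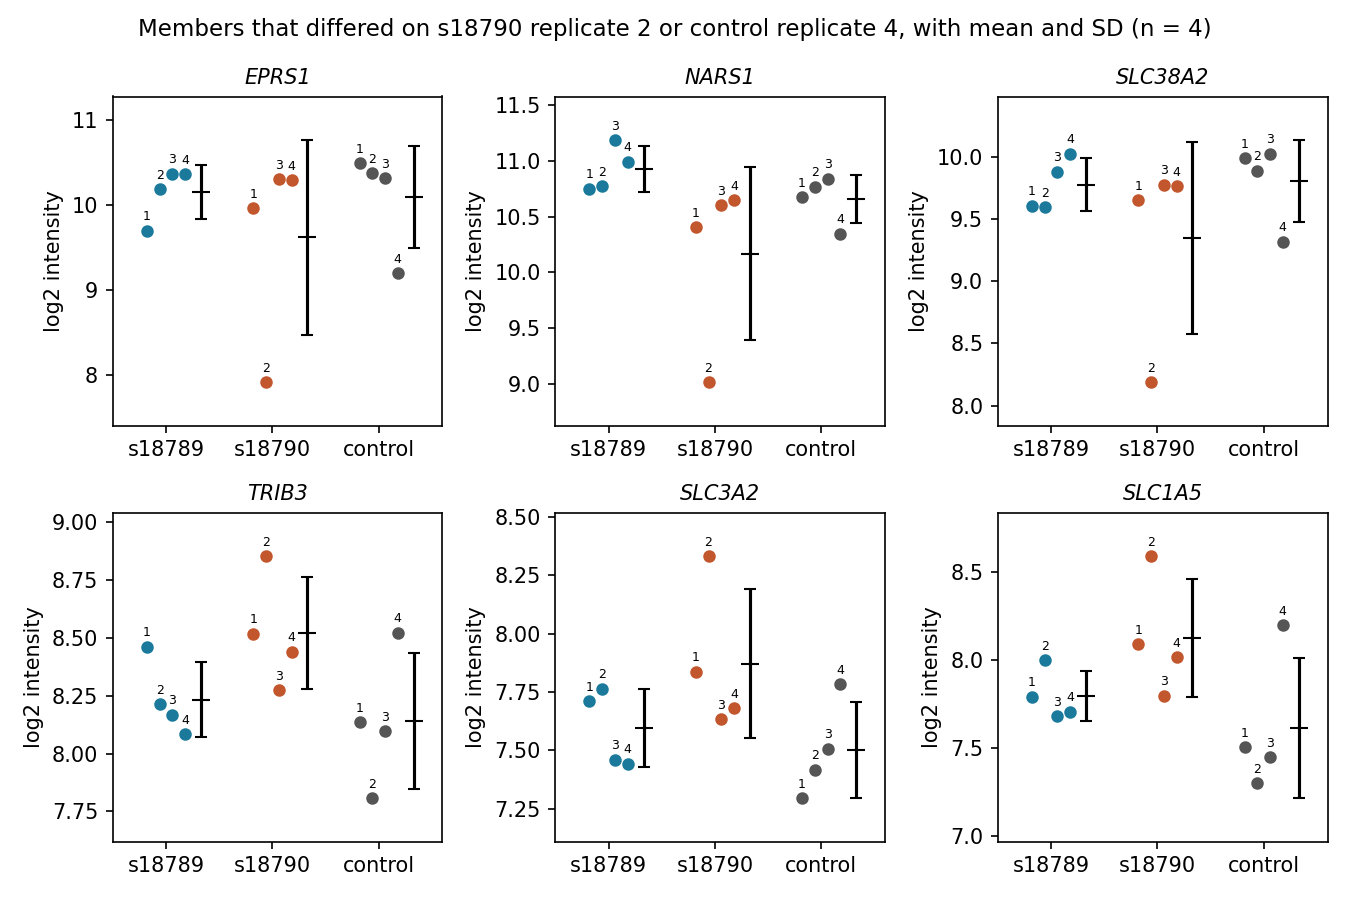
Log2 intensity on each array for 6 genes, with the replicate number above each point and the mean and SD of each group (n = 4) beside the points; each panel has its own axis, which does not start at 0. s18790 replicate 2 and control replicate 4 are the lowest arrays of their groups for EPRS1, NARS1 and SLC38A2 and the highest for TRIB3, SLC3A2 and SLC1A5.

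These array effects ran through much of the gene group. s18790 replicate 2 was the highest of its group for 23 of the 29 genes (79.3%, against 52.7% of all genes measured). It was the lowest for 4 (13.8%, against 34.9% of all genes). Control replicate 4 was the highest control for 18 genes (62.1%, against 46.5% of all genes), and s18789 replicate 1 the highest of its group for 18 (62.1%, against 37.2%). The detected share of probes was lowest on s18790 replicate 2 and control replicate 4, and its part in the results was not tested. Without s18790 replicate 2 and control replicate 4, limma called 0 of the 29 genes for s18789 minus control (0.779% of probes and 0.946% of all genes). It called 6 (20.7%) for s18790 minus control (17.6% of probes and 19.9% of all genes): CEBPB, TRIB3, VLDLR, SLC7A5 and SLC1A5 higher and AARS1 lower. For s18790 minus s18789 it called 5, or 17.2% (10.3% of probes and 11.9% of all genes): ATF5 and VLDLR higher and DDIT4, STC2 and PSAT1 lower.

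Other genes of the pathway were taken from lists chosen with earlier results of these data known. With s18790 against control, OMA1, SEL1L3, RARS1, HARS2, AMT and MANF were called lower, and SLC38A7 and SARS2 higher. Over all genes measured, 498 were called higher and 471 lower in that comparison. With s18790, 8.32% of all probes passed against control, and 9.85% of the 9833 genes measured, counted with 1 probe each as these lists are. These shares are the background for each count below. Of 16 measured kinases, subunits and regulators of eIF2, 0 passed with s18789 and 1 (6.25%) with s18790, OMA1, the mitochondrial protease that relays mitochondrial stress to this pathway. OMA1 was detected on 4 s18789 arrays, 3 control arrays and 0 s18790 arrays. It thus met the detection filter through the groups where it was brighter, and its test is no independent call. With s18790 it was at least 1.18-fold lower than in control (limma adjusted p = 0.0457). Of 25 other reported ATF4 targets, 2 passed (8%). SEL1L3, a SEL1-like membrane protein, was lower by -0.50 (adjusted p = 0.0203). SLC38A7, a lysosomal glutamine transporter, was detected on 4 s18790 arrays, 2 s18789 arrays and 0 control arrays, so that it met the detection filter through the groups where it was brighter and its test is no independent call. It was at least 1.24-fold higher with s18790 than in control (adjusted p = 0.0378), and missed the threshold without both outlying arrays (adjusted p = 0.0671). For such bounds the dim group was set, on each array, to the dimmest probe above background, or to the gene's own probe where that was brighter. The median of the 25 targets was 0.026 with s18789 and -0.034 with s18790, against 0.011 and 0.018 for all genes.

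Synthetases outside the 33 genes divided by gene. Among 7 other cytosolic ones (1 called, 14.3%), RARS1, the arginine enzyme, was lower with s18790, at 10.30, 9.52, 10.56 and 10.25 against 10.82, 10.88, 10.82 and 10.63 in control (-0.63 ± 0.18, limma adjusted p = 0.0491), with s18790 replicate 2 the lowest. Among 15 mitochondrial ones (2 called, 13.3%), HARS2 was lower with s18790, at 9.57, 9.59, 9.51 and 9.31 against 9.91, 9.99, 9.96 and 10.04 in control (-0.48, adjusted p = 0.0186), and SARS2 was higher, at 9.03, 9.22, 8.86 and 8.79 against 8.35, 8.47, 8.38 and 8.81 in control (0.47, adjusted p = 0.0401). Every HARS2 array with s18790 was below control, and SARS2 overlapped control at replicate 4. With s18789 HARS2 read 9.85, 9.80, 9.45 and 9.70 (-0.28, limma adjusted p = 0.705), also below every control array. AMT, the aminomethyltransferase of glycine cleavage, was the 1 gene called against control (9.09%) of 11 other folate and serine enzymes, at 8.33, 8.47, 8.25 and 8.24 with s18790, against 8.68, 8.81, 8.68 and 8.93 in control (-0.45 ± 0.10, adjusted p = 0.0156). With s18789 it read 8.29, 8.44, 8.34 and 8.44 (-0.40, adjusted p = 0.255), also below every control array.

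The endoplasmic reticulum and mTORC1 lists gave 1 called gene between them. MANF, a secreted protein induced by unfolded proteins in the endoplasmic reticulum, read 10.63, 10.86, 10.70 and 10.75 with s18790 and 11.35, 11.16, 11.08 and 11.24 with s18789, against 11.16, 11.29, 11.19 and 11.32 in control. The s18790 values lay below all 8 others (-0.51 from control, limma adjusted p = 0.00854, and -0.47 from s18789, adjusted p = 0.0199). The other 15 measured genes of the chaperone, ATF6 and XBP1 list did not pass against control, and the list's median was 0.079 with s18789 and 0.026 with s18790. Of 21 genes of mTORC1 and amino acid sensing, 0 passed in limma against control with either siRNA. An unadjusted p under 0.05 was found for 1 with s18789 (against 6.02% of probes and 6.35% of all genes). With s18790 it was found for 4 (against 24.9% of probes and 28.2% of all genes). LAMTOR2, a lysosomal scaffold subunit, was below control on every s18790 array (-0.35, adjusted p = 0.0643), and passed without both outlying arrays (-0.38, adjusted p = 0.0305).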

How the data were processed

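Total RNA of 12 samples was hybridised to single-colour Illumina bead arrays after biotin labelling, 1 array per sample. The deposited intensity of each probe is on a linear scale and, as its values show, was neither background-corrected nor normalized between arrays; per the submitters' processing notes, GenomeStudio was used. Beside it the authors deposited a detection p-value per probe, per the file headers. The authors also deposited log2 values for these arrays, and no source used here names their transform, so they served only as an alternative. Genome coordinates are used only for promoter windows of RefSeq (GRCh38.p14); the probe values carry none.

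From the 47321 probes (30113 with 1 gene symbol, 8 with several, 17200 unnamed here), limma 3.58.1 in R 4.3.3 corrected background by the normal-exponential model through detection p-values, with an offset of 16, followed by log2 and quantile normalization. Probes with a detection p under 0.01 on at least 4 of 12 arrays were kept (15922). A model with 1 mean per group (9 residual degrees of freedom, lmFit, contrasts.fit and eBayes) gave log2 differences, standard errors (SE), 95% intervals and p-values, adjusted by Benjamini-Hochberg over all kept probes, and called means an adjusted p under 0.05. SETD1A was also tested by an exact two-sided permutation over 70 arrangements. Figures were drawn with matplotlib 3.10.9. The number of arrays limits the precision. The procedure was tested on simulated data with independent noise for each probe and no outlying arrays. That test cannot speak to arrays that stand apart from their group. No source used here gives an array's chip, and chip effects were not analysed.

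The members and all other gene lists were chosen with earlier results of these data known. All 33 members could be named; of each other list, up to 4 measured genes with the largest absolute mean difference from control and every gene called against control; and SETD1A. Alternatives were no background correction, median scaling, the deposited log2 values, no detection filter or detection on all arrays, an offset of 50, array weights, the replicate number as a block, fits of only the groups compared, other probes, and leaving out arrays.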

Additional observations from a re-analysis of the deposited data

Results flagged for a closer look

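Within a group of 4, 1 array stood further from the other 3 than the 95% critical value of Dixon's gap test allows in 7 of 87 combinations of gene and group, where chance alone gives about 1 in 20, or 4.35. Of these 7, 4 fell on s18790 replicate 2 and 2 on control replicate 4, the arrays that stand apart across the whole array.

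On s18790 replicate 2, EPRS1 read 7.92, with the other 3 arrays of the group between 9.96 and 10.30, NARS1 read 9.02 (others 10.40 to 10.65), SLC38A2 read 8.19 (others 9.65 to 9.78) and SARS1 read 9.12 (others 8.62 to 8.70). On control replicate 4, EPRS1 read 9.20 (others 10.32 to 10.49) and SHMT2 read 10.59 (others 10.23 to 10.27). On s18789 replicate 4, SARS1 read 8.53, with the others between 8.69 and 8.70. The part that the low share of detected probes on the first 2 of these arrays plays was not tested.

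STC2 differed between the siRNAs by the fit's own test of s18790 minus s18789 (log2 difference -0.65, limma adjusted p = 0.0445), while neither difference from control passed, at 0.32 with s18789 and -0.33 with s18790.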

How the results depend on the processing

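Each result was recomputed under 22 to 25 alternatives, depending on its probes and test. Every member kept the sign of a called difference: VLDLR remained called for s18790 minus control in 22 of 23 (adjusted p 0.00205 to 0.0691), SLC7A5 in 10 of 23 (0.00319 to 0.203), and STC2 for s18790 minus s18789 in 13 of 23 (0.00943 to 0.137). The cause of the changes below was not tested.

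For s18790 minus control the count of called members was 2 (6.90%, against 8.32% of probes and 9.85% of all genes). It became 3 (10.3%, ATF4 joining as lower) with no background correction (9.11% of probes), the deposited log2 values (9.12%) or an offset of 50 (8.975%). It became 0 under median scaling (5.08%), 1 without a detection filter (VLDLR, 2.44%) and 1 with only the groups compared (2.70%). With array weights it became 8 (AARS1, ATF4, ATF5, CEBPB, SLC1A5, SLC7A5, TRIB3 and VLDLR), or 27.6%, where 19.6% of all probes were called. Without both outlying arrays it became 6 (20.7%, against 17.6% of probes and 19.9% of all genes). With 1 array left out it lay between 1 and 3, where 3.66% to 11.3% of probes were called. For s18789 minus control the count of 0 became 1 with array weights (SLC7A5, with 2.42% of probes called). It stayed 0 with any array left out, where 0.0188% to 0.502% of probes were called. For s18790 minus s18789 the count was 1 (3.45%, against 4.20% of probes and 5.07% of all genes). It became 2 (6.90%, PSAT1 joining) with no background correction (5.13% of probes), the deposited log2 values (5.09%) or an offset of 50 (4.82%). It became 4 with detection on all 12 arrays (14.3%, against 6.25%) and 3 with all probes of a gene averaged (10.3%, against 5.30% of all tested). Without both outlying arrays it became 5 (17.2%, against 10.3% of probes and 11.9% of all genes), and under array weights 6 (20.7%, against 9.90% of probes). It fell to 0 with only the groups compared (1.26%). With 1 array left out it was 0 to 2, where 1.29% to 6.80% of probes were called. With no detection filter it stayed 1 (1.27% of probes), but PSAT1 took the place of STC2 (adjusted p = 0.0803). By the F test the count of 1 became 2 with no background correction (6.93% of probes), the deposited log2 values (6.98%) or no detection filter (2.01%). It became 7 without both outlying arrays (24.1%, against 15.6% of probes) and 10 under array weights (34.5%, against 19.2%). With 1 array left out it was 0 to 2, where 2.79% to 9.03% of probes were called. The 0 arose without s18790 replicate 1. Under median scaling the F test count stayed 1 (4.73% of probes), with STC2 in place of VLDLR.

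Median scaling moved the median of all kept probes to 0.081, -0.076 and -0.14 in the 3 comparisons (s18789 minus control, s18790 minus control, s18790 minus s18789). The members' median for s18790 minus s18789 moved to -0.25, or -0.10 relative to all probes. For s18789 minus control, 24 of 29 members lay above 0 under median scaling and 23 above the all-probe median. The members' medians lay between 0.084 and 0.18, between -0.082 and 0.047, and between -0.18 and -0.071 with 1 array left out.

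SETD1A missed the threshold for s18790 minus control, still at -0.63, with no detection filter (adjusted p = 0.0502) or only the groups compared (0.0999), with log2 differences between -0.77 and -0.51 with 1 array left out. For s18790 minus s18789 it passed without both outlying arrays (-0.33, adjusted p = 0.0407).

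Replicate numbers were shared between groups, but the correlation of same-numbered arrays' deviations ran from -0.58 to 0.58 and was not above 0.1 for every pair, so the numbers were not read as pairs. With a replicate block the counts were 1 for s18790 minus control (VLDLR, with 5.24% of probes called) and 0 for s18790 minus s18789 (1.86%). In that fit SETD1A stood at -0.63 for s18790 minus control (adjusted p = 0.0510).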
